A study of Gallus gallus with 6 samples.

Results

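The transforming growth factor beta (TGF-beta) ligands, receptors and SMAD proteins were followed through 10 genes of chicken neural crest cultures: TGFB2 and TGFB3, TGFBR1, TGFBR2 and TGFBR3, and SMAD1, SMAD2, SMAD3, SMAD5 and SMAD7. They were taken by gene symbol from the array's annotation, which gave 16 probe sets for the 10 genes, of 38382 chicken probe sets and 13009 named genes in all. A gene with several probe sets was represented by its brightest, judged by the mean of the 6 arrays, here called its main one. The treated group was cultures given 100 uM homocysteine, an amino acid formed from methionine, for 6 h (3 arrays). The control group was cultures in media alone for the same 6 h (3 arrays). Both groups were grown from neural tube explants of stage 9+ chicken embryos that had first been 4 h in culture, and total RNA was read on a 1-colour Affymetrix chicken array. Strain and sex were not given, nor was it said whether embryos were pooled, whether the explant stayed in the dish, or whether the arrays numbered 1 to 3 in each group stand for separate cultures. A p-value here thus sets a difference against the spread of these samples alone, and that spread may be technical. The limma test used here draws that spread partly from all 38382 probe sets, dim ones included, and not from a gene's own readings only.

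TGF-beta ligands are secreted in a latent form and, once released, bind a type II receptor kinase, which then phosphorylates a type I receptor kinase. The type I receptor phosphorylates SMAD2 and SMAD3, whereas the related bone morphogenetic protein (BMP) receptors phosphorylate SMAD1 and SMAD5. These SMADs enter the nucleus with SMAD4 and act on transcription, and SMAD7 is induced by the pathway and blocks it at the receptor. In the embryo, TGF-beta and BMP signals take part in the delamination of neural crest and in the choice of its later fates.

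No member was found to differ between homocysteine and control. Of the 10 main probe sets 0 passed an adjusted p of 0.05, as was so for 0 of all 38382 probe sets (0%; limma, Benjamini-Hochberg), and the adjusted p of every member was 0.9999. On simulated data this fit called 0% of 2-fold and 0% of 4-fold changes, so the 0 does not show that members were unchanged. At an unadjusted p under 0.05 stood 1524 probe sets (3.97%) and 1 member, TGFBR2. By their main probe sets, the ligands, the type I receptor and the receptor-activated SMADs of the TGF-beta arm had log2 changes between -0.13 and 0.13. Second probe sets gave -0.39 for TGFB3, above background on all 6 arrays, and -1.07 for SMAD3, above it on 2. SMAD5 and SMAD7 were read higher on every homocysteine array than on any control array by their main probe sets, at 1.37 and 1.40 times control, but a second probe set of each, also above background on all 6 arrays, had a negative change. As multiples of each array's background, both main sets overlapped between the groups. Of the receptors, TGFBR1 was far above background on every array, whereas no probe set of TGFBR2 or TGFBR3 rose above background on any. In RNA from a whole culture, fewer cells of a type and less RNA per cell cannot be told apart.

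Background was set on each array at the 95th percentile of the 57 reporter sets, made for exogenous sequences, and lay between 53.2 and 84.9. Between 17435 and 20461 chicken probe sets per array exceeded it. Of the 9 measured neural crest markers, 8 were above background on all 6 arrays, among them SOX10 and FOXD3, and NGFR was on none. Markers of other cells were read too, with 5 of 5 neural tube and 5 of 6 neuronal genes above background on all 6 arrays, as were 3 of 4 of surface ectoderm, 3 of 7 of mesoderm and somite, 3 of 6 of blood and endothelium, 2 of 4 of endoderm and 4 of 5 of smooth muscle and fibroblast. The arrays numbered 1 had lower 5' to 3' signal ratios than the rest, taken here as a gauge of RNA completeness. ACTB signal at the 5' end, as a ratio to that at the 3' end, was 0.059 on homocysteine 1 and 0.0572 on control 1, against 0.238 to 0.421 on the other 4. For GAPDH the ratio was 0.324 and 0.318, against 0.456 to 0.694 on the other 4. What lowered the ratios was not tested.

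**Figure D1:**
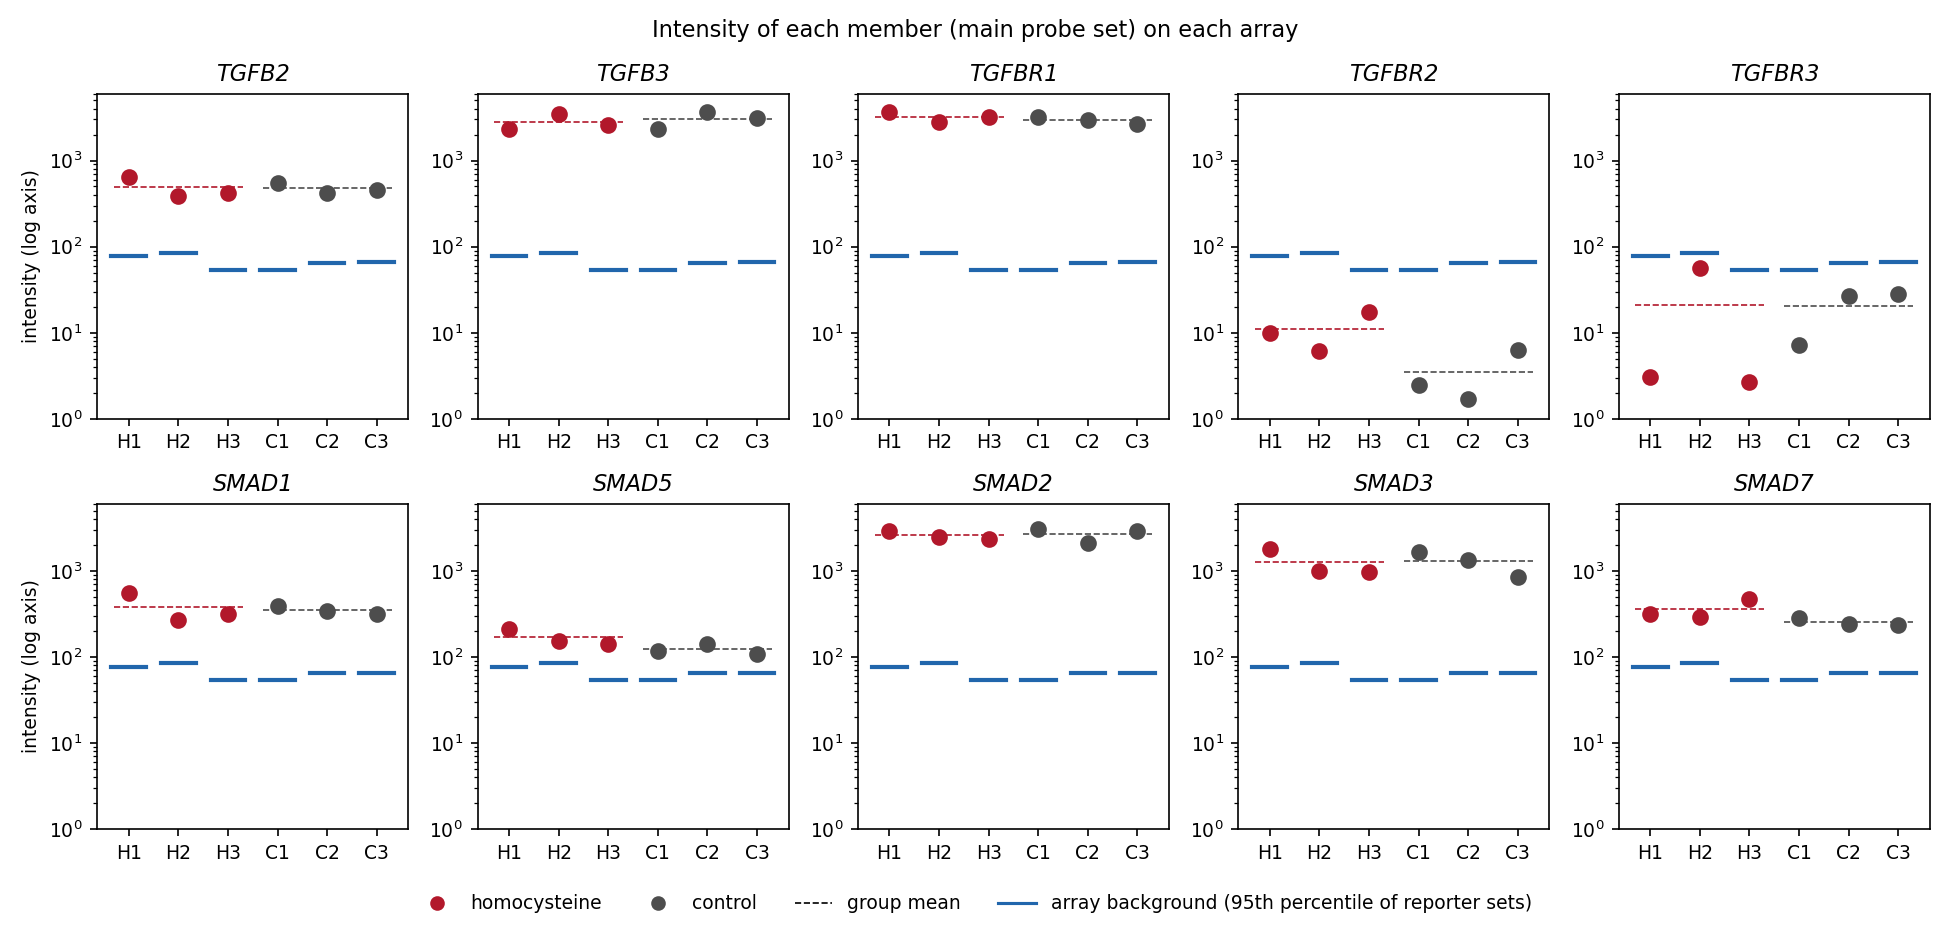
Intensity (log axis) of the main probe set of each member on homocysteine arrays 1 to 3 (H1 to H3, red) and control arrays 1 to 3 (C1 to C3, grey), with the group means dashed and each array's background as a blue bar. Of the 10 members 8 lie above the bar on all 6 arrays, and TGFBR2 and TGFBR3 lie below it on all 6.

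Among the ligands, TGFB2 (1 probe set) had intensities of 651.2, 386.6 and 422.4 on homocysteine 1, 2 and 3, against 548, 423.6 and 460.6 on control 1, 2 and 3. The groups overlapped, the highest value in each being that of array 1. The means were 487 ± 144 with homocysteine and 477 ± 63.9 in control (SD, n = 3 each), and the log2 change was -0.0026 with a 95% interval from -0.79 to 0.78. Throughout, a change is the difference of the groups' mean log2 values, not the log2 ratio of the printed means. The signs of the 2 can thus differ, as here. TGFB2 was 4.55 to 10.2 times the background of its array.

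TGFB3, the other ligand, gave 2303.8, 3459.9 and 2577.1 with homocysteine, against 2329, 3689.7 and 3158.5 in control, by its main probe set. Here array 1 was the lowest of each group, and the groups overlapped. Each homocysteine array was below the control array of the same number, with log2 differences of -0.016, -0.093 and -0.29. The means were 2780 ± 604 and 3059 ± 686 (SD, n = 3 each), a log2 change of -0.13 (interval -0.93 to 0.66). A dimmer probe set gave 241.9, 703.4 and 389.7 with homocysteine, against 291.8, 812.7 and 628.4 in control. It ordered the control arrays and the homocysteine arrays as the main one did, and its change was -0.39 (interval -1.79 to 1.01).

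Of the receptors, TGFBR1, the type I kinase also called ALK5, was read by 1 probe set, at 3645.1, 2812.6 and 3219.9 on the homocysteine arrays, against 3202.2, 2944.2 and 2690.2 on the control arrays. It varied least of the 8 members above background on all 6 arrays, with an SD of 0.16 over the 6 log2 values. The log2 change was 0.13, with an interval from -0.52 to 0.78, which does not reach 2-fold either way.

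TGFBR2, the type II kinase that binds the ligand first, was read at 10, 6.1 and 17.4 with homocysteine, against 2.5, 1.7 and 6.3 in control. All 6 values lay below background, at no more than 0.327 times it. The second probe set gave 3.1, 6.9 and 3.8 with homocysteine, against 3.6, 7 and 3.8 in control. The unadjusted p of the first set was 0.031 in limma (adjusted p = 0.9999), the only member under 0.05, and 2.26% of all main probe sets were under 0.05. These values were not read as a fold, since both groups were below background.

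TGFBR3, the co-receptor betaglycan that presents TGF-beta to the kinases, gave 3.1, 57.2 and 2.7 with homocysteine, against 7.2, 26.5 and 28.5 in control. Every value was below the background of its array, the closest being 0.674 times it on homocysteine 2. Signal from these probe sets did not exceed that of the reporters at this sensitivity, which does not show that the transcripts were absent. By comparison, the main probe sets of 60.9% of named genes were above background on all 6 arrays.

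**Figure D2:**
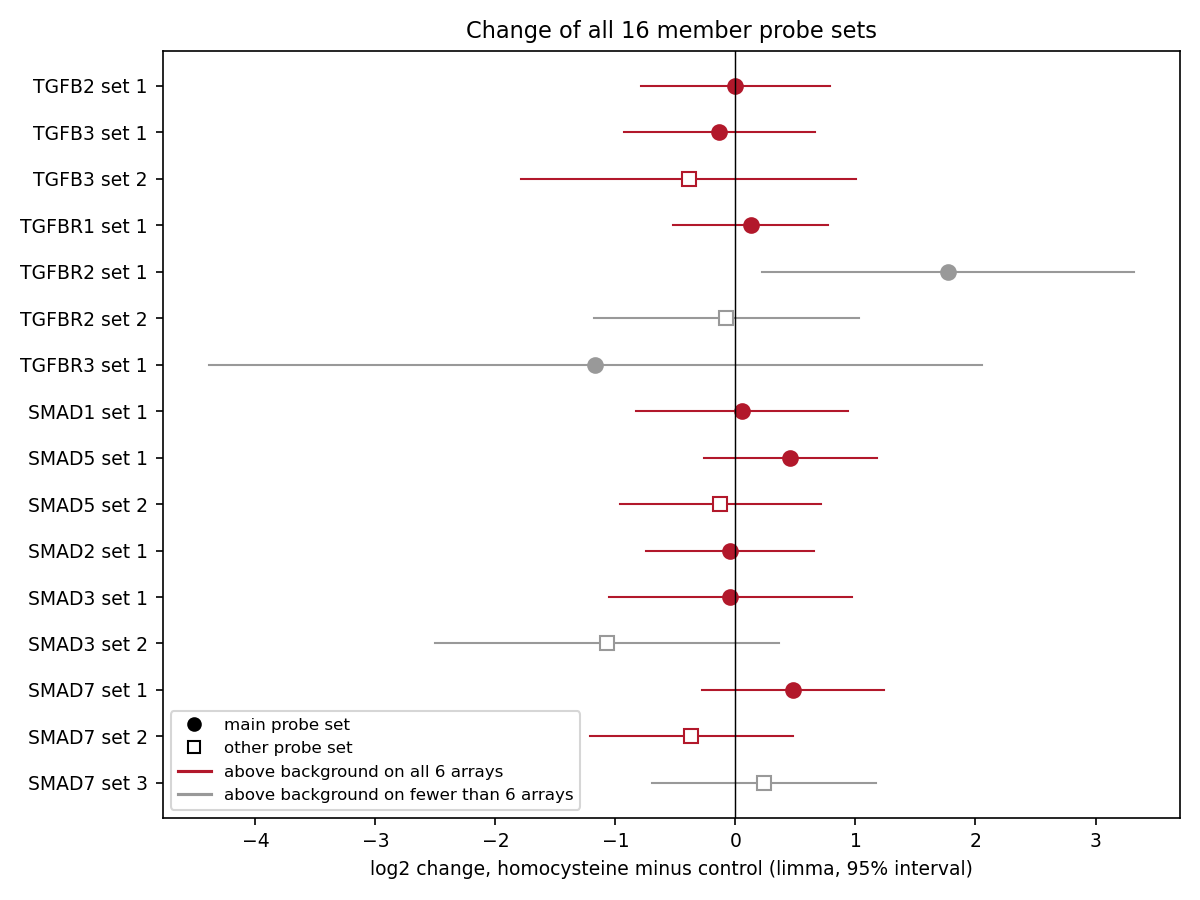
Log2 change, homocysteine minus control, with its 95% limma interval for all 16 member probe sets, numbered within a gene from the brightest. Filled circles are main probe sets and open squares the others, red where above background on all 6 arrays and grey where not. The intervals of all 11 red sets include 0, and the changes of SMAD5 and SMAD7 differ in sign between their probe sets. Grey sets were below background on at least 4 of the 6 arrays.

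The SMADs activated by TGF-beta receptors were read well above background. SMAD2 (1 probe set) gave 2907.1, 2483.8 and 2357.9 with homocysteine, against 3065, 2125.9 and 2870 in control. All 3 homocysteine values lay within the control range. The means were 2583 ± 288 and 2687 ± 496 (SD, n = 3 each), and the log2 change was -0.045 (interval -0.75 to 0.66).

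SMAD3 by its main probe set gave 1802.9, 992.5 and 967 with homocysteine, against 1663.1, 1336.9 and 849.3 in control. It varied most of the 8 members, with an SD of 0.45 over the 6 log2 values, and the high arrays were those numbered 1. The means were 1254 ± 475 and 1283 ± 410 (SD, n = 3 each), with a log2 change of -0.042 (interval -1.06 to 0.97). A second probe set, at 57.4, 31.8 and 12.9 with homocysteine and 64.3, 47.8 and 70.6 in control, was above background on 2 arrays, control 1 and control 3. Its log2 change was -1.07 (interval -2.50 to 0.36), with every homocysteine value below background. For neither SMAD was a difference detectable, and for SMAD3 the interval still allows a change of about 2-fold either way.

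SMAD1, which carries BMP signals, gave 552.8, 270.9 and 316.7 with homocysteine, against 394.2, 343.4 and 313.7 in control (1 probe set). Homocysteine 1 was the highest of the 6 and homocysteine 2 the lowest, so the homocysteine range enclosed the control range. The log2 change was 0.053 (interval -0.83 to 0.94), and it was -0.16 without both arrays numbered 1.

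SMAD5, the other BMP-activated SMAD here, gave 210.4, 154.5 and 142.1 with homocysteine, against 118.2, 139.6 and 108 in control by its main probe set. The lowest homocysteine array, number 3, was just above the highest control array, number 2. The means were 169 ± 36.4 and 122 ± 16.1 (SD, n = 3 each), a log2 change of 0.46 (interval -0.26 to 1.18), with an unadjusted p of 0.17 and an adjusted p of 0.9999 in limma. Without homocysteine 1, the highest array, the change was 0.29, and without both arrays numbered 1 it was 0.27. A second probe set, built on the same transcript record, gave 120.2, 164.5 and 113.5 with homocysteine, against 102.7, 181.5 and 156.1 in control. There the groups overlapped and the change was -0.12 (interval -0.97 to 0.72). Both sets were within 2.82 times background on every array, so the readings of SMAD5 are dim.

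SMAD7, the inhibitory SMAD that targets the receptor, gave 317.3, 291.2 and 472.9 with homocysteine, against 286, 239.3 and 235.2 in control by its main probe set. Homocysteine 3 was the highest by far, and homocysteine 2 exceeded the highest control array only narrowly. The means were 360.5 ± 98.2 and 254 ± 28.2 (SD, n = 3 each), a log2 change of 0.48 (interval -0.28 to 1.24), with an unadjusted p of 0.17 and an adjusted p of 0.9999 in limma. Without homocysteine 3 the change was 0.27, and without both arrays numbered 1 it was 0.65.

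The other SMAD7 probe sets read differently. The second gave 101.1, 200.1 and 159.7 with homocysteine, against 172.4, 200.9 and 200.5 in control. It was above background on all 6 arrays, and its change was -0.37 (interval -1.21 to 0.48), opposite in sign to the main set. Homocysteine 3, the highest array by the main set, was in the middle of its group here. The third was above background on 2 arrays, homocysteine 1 and control 1, with a change of 0.24 (interval -0.70 to 1.17). The median of the SMAD7 sets above background on all 6 arrays gave a change of 0.056.

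SMAD5 and SMAD7 were thus 2 of the 8 members above background on all 6 arrays whose main probe sets were higher on every homocysteine array than on any control array, and 0 of the 8 were lower on every one. Among the 7925 genes above background on all 6 arrays, 1.75% were higher in this way and 1.64% lower. Neither gene passed the test, and with so few members the count of 2 rests on 2 probe sets, each with a second set of its gene above background that had the opposite sign. As multiples of each array's background, the groups overlapped for both main sets. SMAD5 was 1.82 to 2.73 times background with homocysteine and 1.65 to 2.20 times in control. SMAD7 was 3.43 to 8.88 times background with homocysteine and 3.58 to 5.33 times in control. Summed neuronal marker intensity also lay higher on the homocysteine arrays, at 18054 to 20270, against 16419 to 18006 on the control arrays, with 0 of its 6 genes past the threshold. The other marker lists overlapped between the groups. The neuronal sum was separated by 1 bright gene, NEFM, at 11290 to 14184 with homocysteine, against 10066 to 11116 in control (picked after its values were seen). Without it the sums overlapped, at 6086 to 6764 with homocysteine and 6353 to 6890 in control, and the other 5 genes each overlapped between the groups. The part of neuronal cells in the SMAD5 and SMAD7 readings was not tested.

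By same-numbered arrays, 2 of the 8 members (SMAD5 and SMAD7) were higher with homocysteine in all 3 comparisons, against 12.2% of the 7925 genes, and 1 (TGFB3) was lower in all 3, against 12.5%. The 8 members split evenly, 4 with a positive and 4 with a negative log2 change, and their median was 0.025. Of the 7925 genes, 4032 had a positive and 3893 a negative one, and the median was 0.0036. The intervals of 5 of the 8 members (TGFB2, TGFB3, TGFBR1, SMAD1 and SMAD2) lay within 2-fold on both sides. Of the 8, 0 had an unadjusted p under 0.05 in limma. Only 0.0757% of the 7925 genes had one, against 3.97% of all 38382 probe sets. Genes above background on all 6 arrays so rarely fell under 0.05 in this fit that the 0 says nothing particular about the members. The median size of change, whatever its sign, was 0.090 for the members and 0.10 for the 7925 genes. In median size and balance of signs the members' changes lay near those of all genes. Their range was uneven, from -0.13 to 0.48, with SMAD5 and SMAD7 at the upper end.

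**Figure D3:**
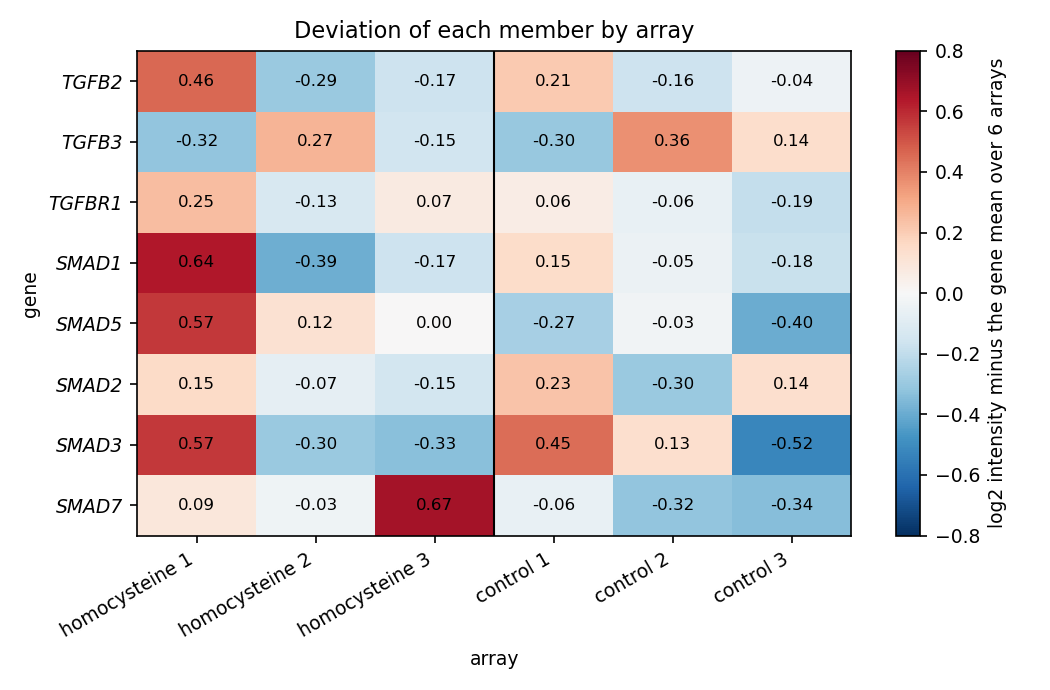
Log2 intensity of each of the 8 members above background on all 6 arrays, minus that gene's mean over the 6 arrays, by array (homocysteine left of the line, control right of it). TGFB2, SMAD1, SMAD2 and SMAD3 are highest on the arrays numbered 1 of both groups, and TGFB3 is lowest there.

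For 6 of these 8 members, the mean log2 difference between the arrays numbered 1 and the other 4 was larger in size than the homocysteine change. The median size of that difference was 0.38 for the 8 members and 0.33 for the 7925 genes, so its size was no trait of the members. TGFB2, SMAD1, SMAD2 and SMAD3 were higher on both arrays numbered 1 than on any of the other 4, by 0.50, 0.59, 0.29 and 0.76 in mean log2. TGFB3 was lower on both, with a mean log2 difference of -0.46, and of -1.20 in its dimmer probe set. The ligands TGFB2 and TGFB3 thus moved in opposite directions between the same arrays. TGFBR1, SMAD5 and SMAD7 did not separate the arrays in this way. Thus 4 of the 8 members were higher on both arrays numbered 1 and 1 was lower, against 23.9% and 25.2% of the 7925 genes. Shifts of this kind were common on the array, and 8 members are too few to compare these shares. The summed neural tube markers were also lower there, at 9348 on homocysteine 1 and 7748 on control 1, against 12270 to 13287 on the other 4 arrays. The neural crest sums overlapped, at 17888.4 to 20822.5 there and 20520.1 to 30035.8 on the other 4. SNAI2, SOX8, SOX10 and ETS1 (named after their values were seen) were lower on both (-2.29, -1.07, -0.52 and -0.39 in mean log2). FOXD3 was lower too, at 673 on homocysteine 1 and 783.8 on control 1, against 1534.8 to 2284.9 on the other 4. ITGA4 (0.23), the brightest crest marker, did not separate these arrays, nor did TFAP2A, SOX9 or NGFR. The summed blood and endothelial markers were higher on the arrays numbered 1, at 1169 on homocysteine 1 and 1424 on control 1, against 881 to 1024 on the other 4. Of these genes (named after their values were seen), CDH5 and KDR were higher on both, by 0.92 and 0.23 in mean log2. TAL1 (-0.061), HBA1, PECAM1 and VWF did not separate these arrays. The ACTB ratio given above was also lower on the arrays numbered 1. The part of RNA completeness and of cell make-up in these shifts was not tested.

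The genes whose pattern over the 6 arrays was most like that of SMAD3, the most variable member, were ZMYND11, HMGCS1, CIT, TPR and CAT. Likeness was the root mean square difference of log2 values, each gene centred on its own mean, over the 6 arrays. It was 0.099 for ZMYND11, the closest, and 0.12 for CAT, the fifth, against a median of 0.47 over 7924 genes. All 5 were higher on the arrays numbered 1, by 0.51 to 0.72 in log2, which follows from their choice by likeness to SMAD3. For TGFBR1, the least variable member, the closest were CNBP, VMP1, ZNF622, EPB41 and NAP1L1, at 0.014 to 0.045 against a median of 0.29. The closest genes lie below the median by the way they were chosen. The 6 arrays share their numbered groups and their scaling, and these values are descriptions.

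Beyond the members, 87 of 110 listed genes of the TGF-beta pathway were measured, and 58 of these were above background on all 6 arrays. None of the 87 passed (adjusted p = 0.9999 for each in limma), in either direction, and 1 had an unadjusted p under 0.05, against 2.26% of all main probe sets. That gene, BMPR2, a type II BMP receptor named here after its value was seen, was read at 10.9, 8.3 and 51.7 with homocysteine, against 75, 76.4 and 61.5 in control. It was above background on 2 control arrays only. Of the 58, 19 changes were positive and 39 negative on the log2 scale, and the median was -0.066, against 0.0036 for the 7925 genes. Between the groups 5 of the 58 did not overlap, 2 higher with homocysteine (BMPR1A and LTBP2) and 3 lower (NRP1, BMPR1B and LTBP1, the last pair named after their values were seen), against 3.39% of the 7925 genes in either direction.

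**Figure D4:**
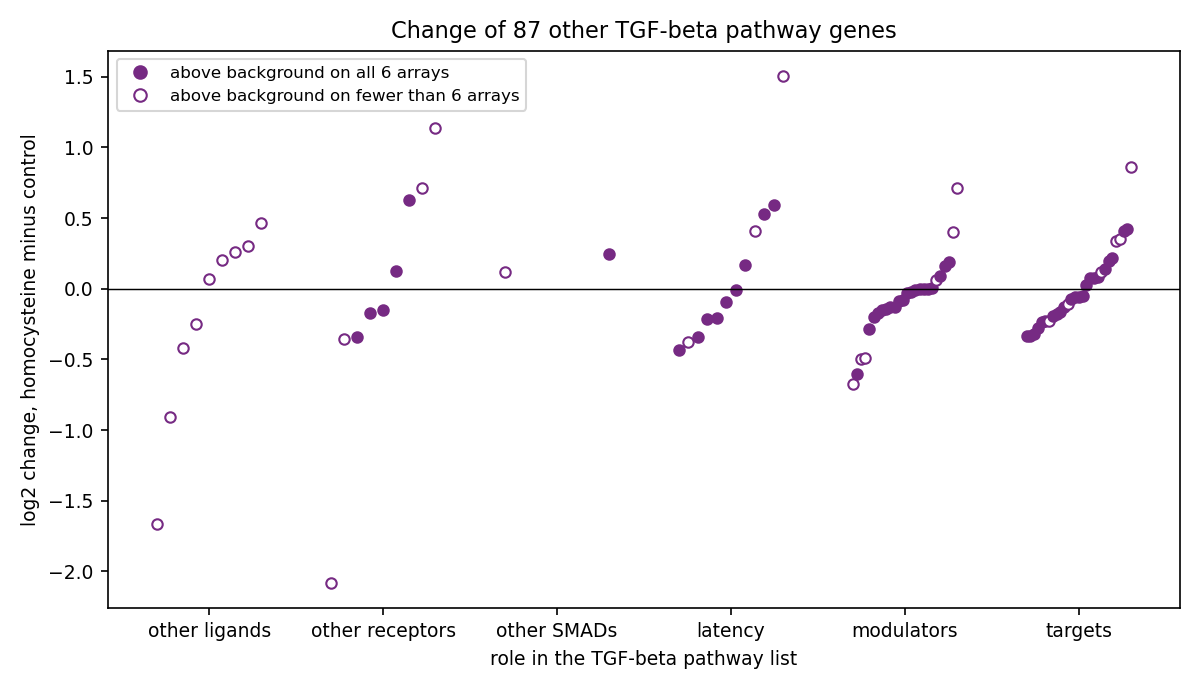
Log2 change, homocysteine minus control, of the main probe set of 87 TGF-beta pathway genes other than the members, by role, filled where above background on all 6 arrays. Filled points lie between -0.60 and 0.63, and the wider changes belong to dim genes. No other ligand is filled.

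Of the other ligand genes, 9 were measured and 0 were above background on all 6 arrays. TGFB1, which with INHBA is named here after its values were seen, was above it on 3 arrays, at 35.2, 92.1 and 46.3 with homocysteine, against 27.1, 71.6 and 67.1 in control. The activin subunit gene INHBA was above it on 4. TGFB2 and TGFB3 were thus the only ligand genes listed here that were above background on every array.

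Among 9 other receptor genes 5 were above background on all 6 arrays, with 2 positive and 3 negative changes. BMPR1A, a type I BMP receptor, gave 103.3, 137.5 and 156.4 with homocysteine, against 68.1, 96.4 and 92.1 in control, a log2 change of 0.63 with no overlap. These readings were dim: background on the same arrays was 77.2, 84.9 and 53.2, against 53.7, 64.3 and 65.6. As multiples of it, the BMPR1A groups overlapped. NRP1, a co-receptor better known for semaphorins and VEGF, gave 1119.8, 1348.1 and 1323.4 with homocysteine, against 1773.8, 1423.4 and 1597.4 in control, a change of -0.34 with no overlap. Neither passed (adjusted p = 0.9999 in limma). The activin type II receptors ACVR2A and ACVR2B, named after their values were seen, were bright, with means of 7591 and 8498 for ACVR2A and of 10020 and 9135 for ACVR2B with homocysteine and in control. Among type II receptor genes, ACVR2A and ACVR2B were thus above background on all 6 arrays, BMPR2 on 2 and TGFBR2 on none.

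SMAD6, the inhibitory SMAD of the BMP arm, gave 2076.6, 1494.2 and 1698.5 with homocysteine, against 1724.6, 1251.7 and 1466.5 in control. It was higher with homocysteine for each array number, but the groups overlapped, and the change was 0.25. Both inhibitory SMADs, SMAD6 and SMAD7 by its main set, had positive changes, and neither passed.

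Of 12 measured genes of ligand latency, 9 were above background on all 6 arrays, with 3 positive and 6 negative changes. LTBP2, a matrix protein of the latent TGF-beta binding family, gave 218.7, 245.9 and 224 with homocysteine, against 168.9, 128.2 and 161 in control, a change of 0.60 with no overlap. As multiples of each array's background, the LTBP2 groups overlapped. ITGAV, the integrin subunit that takes part in releasing the ligand, gave 135.5, 184.8 and 130.3, against 174.9, 243.8 and 187.2, a change of -0.43. Among 20 modulators above background on all 6 arrays, 4 had positive and 16 negative changes, with a median of -0.055. The co-repressor gene TGIF1 had the widest, -0.60, from 243, 952.6 and 212.9 with homocysteine against 191.4, 779.5 and 1160.5 in control. Its low arrays were homocysteine 1, homocysteine 3 and control 1, the 3 with the lowest ACTB ratio. Control 3, with a ratio of 0.287 against 0.238 on homocysteine 3, had the highest reading. The part of RNA completeness in the TGIF1 readings was not tested.

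Of 23 target genes above background on all 6 arrays, 9 had positive and 14 negative changes, with a median of -0.062. POSTN, which encodes the matrix protein periostin, gave 2015.5, 1274.1 and 1513.7 with homocysteine, against 1603.2, 844.8 and 1193.5 in control, a change of 0.42. PDGFB, a growth factor gene, gave 226, 149.4 and 202.9, against 146.3, 119.4 and 168.1, a change of 0.41. Both were higher with homocysteine for each array number, and their groups overlapped. Of the 23 targets, 3 were higher in all 3 same-numbered comparisons and 5 were lower in all 3. The shares of the 7925 genes were 12.2% and 12.5%. No target passed.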

How the data were processed

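Total RNA of 6 neural crest culture samples was measured on 1-colour arrays. The authors deposited 1 linear intensity per probe set and array. RMA, with no version, stands in the submitters' processing notes, yet RMA gives log2 values, and every array here has a 2% trimmed mean of 500.1. How background was corrected is not given in the sources used. Log2 of each value was taken with no further scaling. The 96 Affymetrix control and 57 reporter sets were left out, and limma 3.58.1 in R 4.3.3 (lmFit, eBayes, two-sided) compared 38382 probe sets, adjusted by Benjamini-Hochberg over all of them. Symbols come from the platform annotation (1 symbol for 27168 sets, several for 177, none for 11037). Depth has no counterpart here: the number of arrays limits the precision, and with 3 arrays a group, the smallest two-sided p of an exact permutation test is 0.1. On data simulated for this comparison (38382 probe sets, 200 changed) the fit called 0% of 2-fold, 0% of 4-fold and 65.6% of 8-fold changes. These shares were not worked out apart for sets above background on all 6 arrays.

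Members, lists and the background were chosen with earlier results of these data known. All 10 members are named. From the pathway list, the named genes are, per role, the 2 with the smallest p above background on all 6 arrays (PPM1A, at 446 with homocysteine and 538 in control, completes the modulators), and the 5 genes most like the most and least variable members. Groups and array numbers are from the titles. Alternatives were the replicate block, filters, other scalings, a pseudocount, another variance model, other gene summaries, and arrays left out.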

Additional observations from a re-analysis of the deposited data

How the results depend on the processing

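The count of members, pathway genes or probe sets past the adjusted threshold was 0 in all settings run for each, leaving out each array included, and the lowest adjusted p of a member in any of the 18 settings was 0.772. The main fit called 0% of simulated 2-fold and 4-fold changes, so repeating this 0 does not show that members were unchanged. At an unadjusted p under 0.05, the 1524 probe sets became 375 and 157 with only sets above background on at least 3 or on all 6 arrays, 1001 with a trended and robust variance, and 533 with dim values raised to background. Settings that keep sets above background on all 6 arrays or raise dim values were chosen after the data were examined. The limma p of SMAD5 and SMAD7 was 0.099 and 0.10 with sets above background on at least 3 arrays. It was 0.081 and 0.085 with sets above it on all 6, and 0.092 and 0.083 with dim values raised. With arrays centred on their medians it was 0.24 and 0.29. The lowest adjusted p of either gene in any setting was 0.784 (limma). Of 174 log2 changes of members, 18 turned their sign, 17 of them in members above background on all 6 arrays. No member was called in any setting. Quantile normalization gave 0.059 for TGFB2 and 0.0052 for SMAD3. For SMAD1, centring on array medians gave -0.0026 and leaving out both arrays numbered 1 gave -0.16. The cause of these turns was not tested. Raising dim values gave 0.21 for TGFBR3 and the same for TGFBR2. Both genes were below background on every array, so this value is the groups' difference in background and holds no signal of either gene. Leaving out each array in turn gave -0.23 to 0.14 for TGFB2, -0.32 to 0.014 for TGFB3, -0.25 to 0.26 for SMAD1, -0.21 to 0.059 for SMAD2 and -0.34 to 0.17 for SMAD3. The mean over all probe sets of a gene, dim ones included, moved SMAD5 to 0.17, SMAD7 to 0.12, TGFB3 to -0.26, SMAD3 to -0.56 and TGFBR2 to 0.85.

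The main fit did not take the array numbers to pair the samples, since pairing is not stated. Deviations from the group means correlated by 0.17, 0.11 and 0.049 for numbers 1, 2 and 3 over all 38382 probe sets, dim ones included. Over the 14437 sets above background on all 6 arrays they gave 0.79, 0.70 and 0.33. In both, each of the 6 arrays was closest to the one sharing its number, a hint from the data that the numbers go together. With the replicate block 0 probe sets and 0 members passed, 2023 probe sets had an unadjusted p under 0.05, and the p of SMAD5 and SMAD7 was 0.15 and 0.17 (limma). The p of TGFBR2, below background on every array, was 0.0027 (adjusted p = 0.868 in limma), with same-numbered log2 differences of 2.00, 1.84 and 1.47. Its second probe set, also below background on every array, had differences of -0.22, -0.021 and 0.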

Other observations

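A gene that the annotation names TGFBR2L, which is not among the members and was looked up after its values were seen, has 3 probe sets. The brightest by mean gave 68.7, 99.7 and 65.1 on homocysteine 1, 2 and 3, against 60.5, 82.1 and 58.7 on control 1, 2 and 3, and was above background on 4 of the 6 arrays.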
